A study of Mus musculus with 10 samples.

Results

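The collagen genes are described here as 1 group of transcripts in the epidermis of newborn mice that lack or keep integrin-linked kinase (ILK), a scaffold protein of integrin adhesions. A collagen gene was any gene whose symbol has the form of a collagen chain (Col, a number, the letter a and a number) and which has a probe set with that symbol alone. This gave 44 genes on 46 probe sets, of 35556 probe sets on the array, and each gene is represented by its probe set of highest mean over the 10 arrays. Col6a5 and Col6a6 had 2 probe sets each.

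ILK-deficient epidermis came from 5 mice that carried the K14Cre transgene and were homozygous for the floxed Ilk allele (K14Cre; Ilk f/f). ILK-expressing epidermis came from 5 mice with the same transgene and 1 floxed allele (K14Cre; Ilk f/+). All mice were 3 days old, and all carried K14Cre and at least 1 floxed allele, so that neither genotype is free of Cre. The keratin 14 promoter drives Cre in keratinocytes, and other cells of the skin keep their Ilk. The epidermis was separated from the dermis with dispase, and its RNA was put on GeneChip Mouse Gene 1.0 ST Arrays, 1 array per mouse. These arrays give 1 value per probe set, on a log2 scale, from probes that cover the whole transcript.

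Collagens are extracellular proteins whose chains wind into a helix of 3 chains. Fibrillar collagens form the fibrils of the dermis, and type IV collagen forms the sheet of the basement membrane on which the basal keratinocytes sit. Collagen VII forms the anchoring fibrils that tie this sheet to the dermis, and collagen XVII is a transmembrane protein of hemidesmosomes, by which basal keratinocytes hold on to it. FACIT collagens lie on the surface of fibrils, collagen VI forms beaded filaments, and collagen VIII forms open networks. Integrins with the beta 1 subunit, to which ILK is coupled inside the cell, are among the receptors of collagen. Most fibrillar and FACIT collagen of skin is made by fibroblasts, and keratinocytes make chains of collagens IV, VII and XVII.

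Col8a1 rose 2.01-fold in ILK-deficient epidermis, and Col4a1 and Col4a2, which encode the chains of the common type IV collagen network, rose 1.33-fold and 1.4-fold. No other collagen gene passed the test in either direction. A call here is an adjusted p under 0.05 in limma, with the Benjamini-Hochberg adjustment made over 32046 probe sets, those that reached a linear value of 50 on 5 or more arrays. All 44 collagen genes passed this filter. Of these, 3 were called higher (6.82%, against a background of 2.81% of all probe sets tested), 0 were called lower (background 0.97%), and 41 were not called (background of calls in either direction 3.78%). Among the 44 genes, limma gave an unadjusted p under 0.05 to 8 that were higher (background 10.2%) and to 2 that were lower (background 5.65%). The log2 fold change, ILK-deficient minus ILK-expressing, was above 0 in 33 of the 44 genes, and in 51% of all probe sets tested. With array medians set equal it was above 0 in 24 of 44 and in 43.4% of all, and over the alternative fits with all 44 genes the count ran between 24 and 38. Its median was 0.05 over the collagen genes and 0.00 over all probe sets tested.

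**Figure D1:**
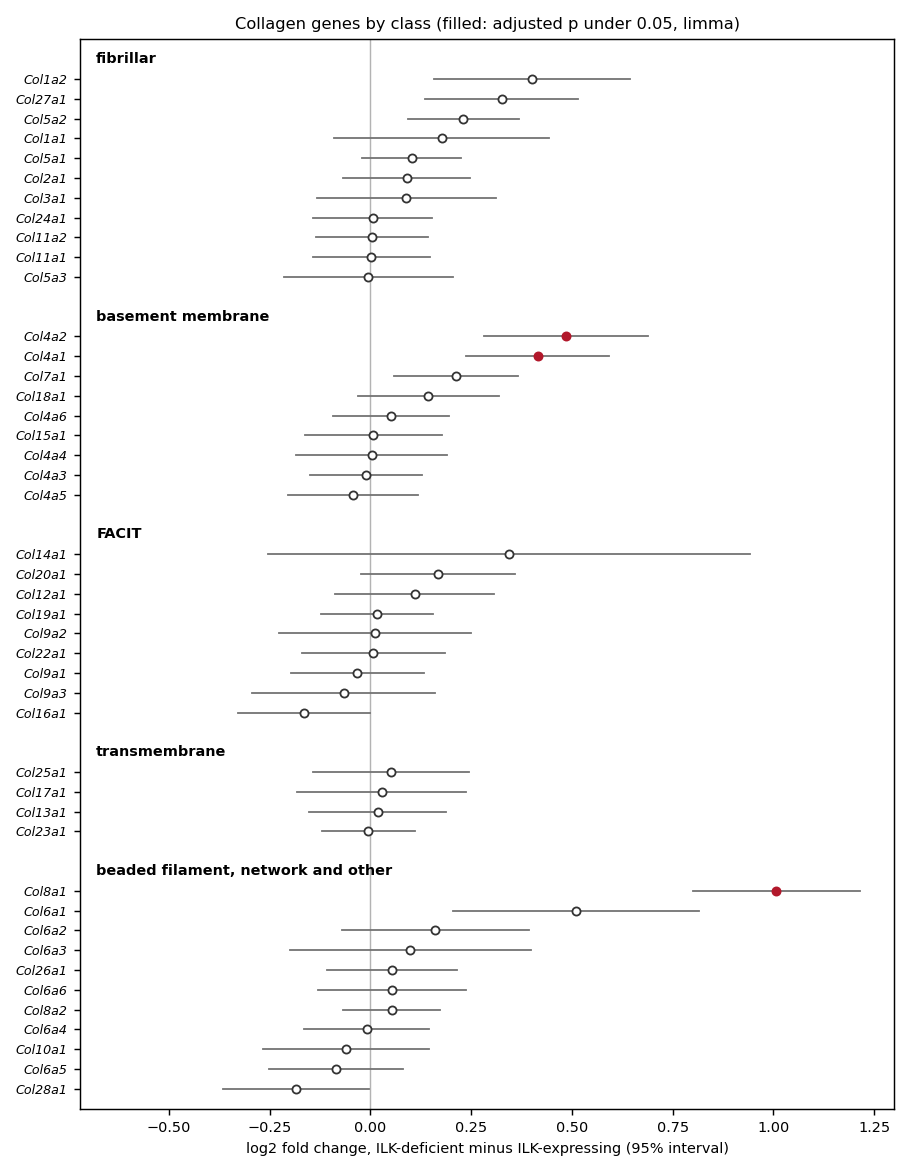
Log2 fold change of each of the 44 collagen genes (ILK-deficient minus ILK-expressing, horizontal axis) with its 95% interval, by class. Filled points have an adjusted p under 0.05 in limma. Col8a1 stands at 1.01 and Col4a2 and Col4a1 at 0.49 and 0.41, and most other intervals include 0.

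The promoter of Col8a1 is shown because this is the gene with the largest change. It is the RefSeq sequence of the 250 bases ahead of the Col8a1 start, on the minus strand of chromosome 16 in the mouse build GRCm38.p6, chr16:57754738-57754987. Capitals mark copies of CAGAC, a core bound by SMAD factors, and of the GC box, GGGCGG, which lies on the other strand there and reads CCGCCC.
Col8a1 promoter: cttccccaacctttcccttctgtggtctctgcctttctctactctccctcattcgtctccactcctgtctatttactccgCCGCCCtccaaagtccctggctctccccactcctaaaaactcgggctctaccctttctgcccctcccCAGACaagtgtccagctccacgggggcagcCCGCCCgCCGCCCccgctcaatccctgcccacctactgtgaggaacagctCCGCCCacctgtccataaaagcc

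The Col8a1 promoter holds 4 GC boxes and 1 CAGAC, none of which overlap, and no copy of CCAAT or of the TATA box, TATAAA, is in these letters. Searched on both strands of the 250 bases ahead of the start, the GC box was in 32.7% of 32851 mouse promoters and in 22 of the 38 promoters of 35 collagen genes. CAGAC was in 42.2% of all promoters and in 17 of the 38, CCAAT in 33.8% and in 13, and TATAAA in 12.4% and in 5. Of the AP-1 site, TGANTCA, the shares were 6.75% and 1 of the 38, and of the TEAD site, GGAATG, 12.6% and 4 of the 38, with none of either ahead of Col8a1, Col4a1 or Col4a2. Col4a1 and Col4a2 lie on opposite strands of chromosome 8, and their RefSeq starts are 21 bases apart. The 2 genes overlap at their starts, so that the 250 bases ahead of each start lie inside the other gene. In these bases Col4a1 and Col4a2 each hold 1 CCAAT, and Col4a2 also holds 2 GC boxes and 1 CAGAC. A match of letters is not a measured binding site.

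Col8a1 encodes a chain of collagen VIII, a short-chain collagen of open networks known from the matrix of vessel walls and of the corneal endothelium. Its log2 value was 10.03, 9.88, 9.59, 9.89 and 10.07 in ILK-deficient replicates 1 to 5, against 8.82, 8.80, 9.05, 8.84 and 8.91 in ILK-expressing replicates 1 to 5. The lowest ILK-deficient array, replicate 3, was above the highest ILK-expressing array, which was also replicate 3. The log2 fold change was 1.01 (95% interval 0.80 to 1.22, adjusted p = 0.00103 from limma). An exact permutation test, two-sided, gave p = 0.00794, the smallest p that the 252 splits of 10 arrays into 5 and 5 can give. Col8a1 was also the 1 collagen gene that met a rule named in the study's methods, 1.5-fold or more with an unadjusted p under 0.05 (background 1.74% higher and 0.892% lower). Col8a2, the gene of the partner chain, was at 6.04 ± 0.0475 in ILK-deficient and 5.99 ± 0.068 in ILK-expressing epidermis (SD, n = 5 each), a log2 fold change of 0.05 (95% interval -0.07 to 0.17). Col8a2 lay near the floor of the filter, 5.64, where a change is hard to see, and the difference between the changes of both chains was not tested.

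Of the 9 basement membrane collagen genes, 2 were called higher (background 2.81%), Col4a2 and Col4a1, and none lower (background 0.97%). Col4a2 had log2 values of 8.03, 8.20, 8.25, 8.20 and 8.52 in ILK-deficient arrays, against 7.87, 7.79, 7.58, 7.75 and 7.77 in ILK-expressing arrays. No array overlapped, and ILK-deficient replicate 5 was the highest. The log2 fold change was 0.49 (95% interval 0.28 to 0.69, adjusted p = 0.0189 from limma). Col4a1 had 7.92, 8.07, 7.89, 8.12 and 8.11 in ILK-deficient arrays, against 7.70, 7.72, 7.48, 7.44 and 7.70 in ILK-expressing arrays, also without overlap. Its log2 fold change was 0.41 (95% interval 0.24 to 0.59, adjusted p = 0.0205 from limma). Its adjusted p was 0.0511 without ILK-deficient replicate 2 and 0.0591 without ILK-deficient replicate 5.

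The other type IV chains, which form the networks of kidney, smooth muscle and some epithelial basement membranes, also lie in neighbouring pairs in the genome, Col4a3 beside Col4a4 and Col4a5 beside Col4a6. None of these 4 genes was called. Their log2 fold changes were -0.01 for Col4a3 (95% interval -0.15 to 0.13), 0.00 for Col4a4 (-0.18 to 0.19), -0.04 for Col4a5 (-0.20 to 0.12) and 0.05 for Col4a6 (-0.09 to 0.20). The upper bounds of these 4 intervals are below the lower bounds of Col4a1, at 0.24, and of Col4a2, at 0.28, but the difference between the genes was not tested. Col4a3, Col4a4 and Col4a6 averaged under 7 on the log2 scale, where the floor of the filter is 5.64, and a change of a transcript near the floor is hard to see on such arrays.

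Col7a1, the gene of the anchoring fibril collagen, had log2 values of 8.62, 8.46, 8.55, 8.45 and 8.53 in ILK-deficient arrays, against 8.32, 8.28, 8.41, 8.42 and 8.13 in ILK-expressing arrays. The groups did not overlap, but the gap was narrow, and the log2 fold change of 0.21 (95% interval 0.06 to 0.37) had an adjusted p = 0.14 from limma. Col18a1, whose product is a basement membrane proteoglycan and the source of endostatin, had 8.43, 8.45, 8.40, 8.47 and 8.65 in ILK-deficient arrays, against 8.21, 8.17, 8.49, 8.42 and 8.37 in ILK-expressing arrays. The groups overlapped, and the log2 fold change of 0.14 had an adjusted p = 0.446 from limma. Col15a1, a relative of Col18a1, had a log2 fold change of 0.01 (95% interval -0.16 to 0.18). The median over the 9 genes was 0.05.

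**Figure D2:**
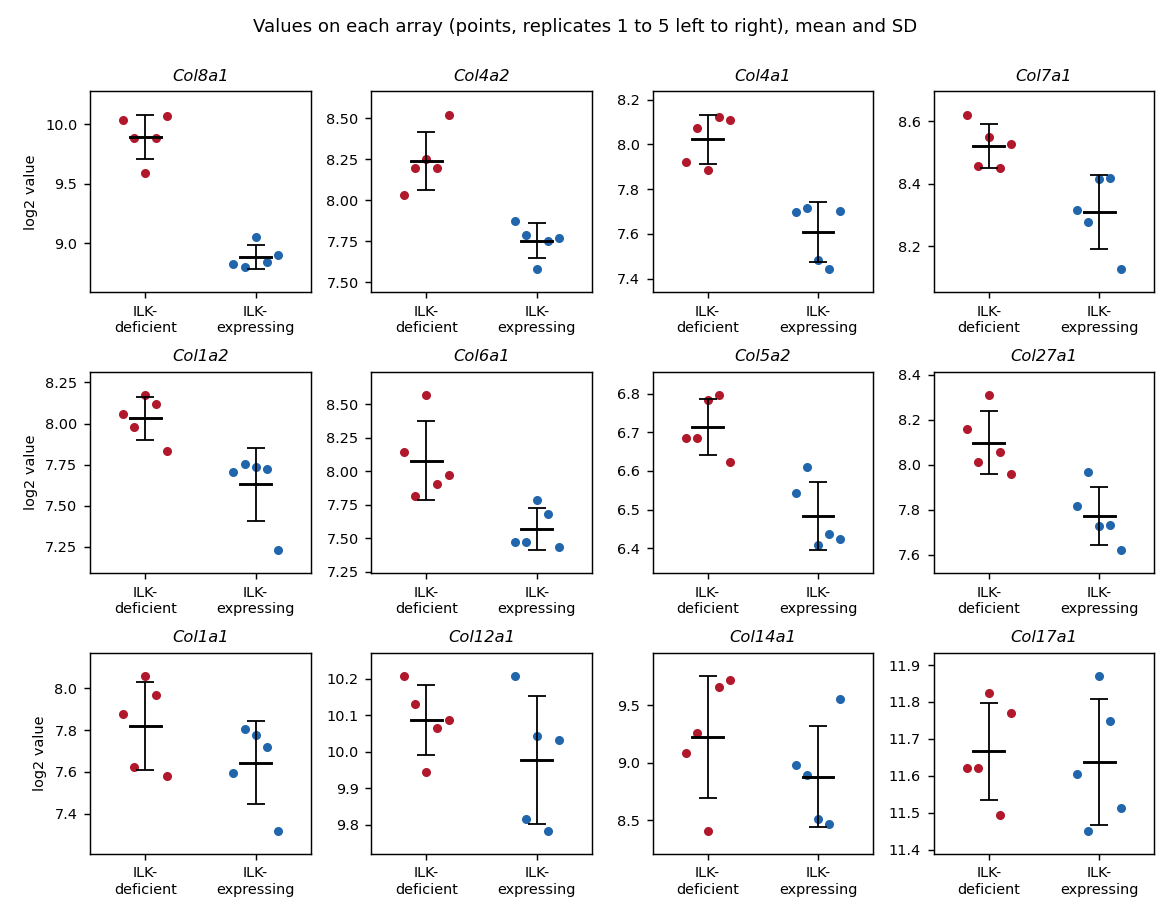
Log2 value (vertical axis, scaled separately in each panel) of 12 collagen genes on each array, ILK-deficient at the left and ILK-expressing at the right (n = 5 each), with the mean as a bar and the SD as whiskers. The groups do not overlap for Col8a1, Col4a2, Col4a1, Col7a1, Col1a2, Col6a1 and Col5a2, and they overlap for the other 5 genes.

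None of the 11 fibrillar collagen genes was called, and the median of their log2 fold changes was 0.09. Col1a2, which encodes a chain of collagen I, the main fibrillar collagen of skin, had 8.06, 7.98, 8.17, 8.12 and 7.83 in ILK-deficient arrays, against 7.70, 7.75, 7.74, 7.72 and 7.23 in ILK-expressing arrays. The groups did not overlap, and ILK-expressing replicate 5 was far below the other ILK-expressing arrays. The log2 fold change was 0.40 (95% interval 0.16 to 0.65, adjusted p = 0.0777 from limma). Col27a1, a fibrillar collagen known from cartilage, had 8.16, 8.01, 8.31, 8.06 and 7.96 in ILK-deficient arrays, against 7.81, 7.97, 7.73, 7.73 and 7.62 in ILK-expressing arrays. Here ILK-expressing replicate 2 lay within the range of the ILK-deficient arrays, and the log2 fold change of 0.33 had an adjusted p = 0.0672 from limma.

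Col1a1, the partner of Col1a2 in collagen I, had a log2 fold change of 0.18 (95% interval -0.09 to 0.44, adjusted p = 0.582 from limma), and Col3a1, which encodes the collagen that accompanies it in dermal fibrils, one of 0.09 (-0.13 to 0.31, adjusted p = 0.8). Col5a2, a chain of the collagen that limits the width of fibrils, had 0.23 (adjusted p = 0.0756 from limma) with no overlap of the groups, and its partner Col5a1 had 0.10 (adjusted p = 0.433). Of the other 5 fibrillar genes, which are known mainly from cartilage and as minor chains, Col2a1 had 0.09, Col24a1 0.01, and Col5a3, Col11a1 and Col11a2 0.00.

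Collagen VI gave the largest log2 fold change among the genes that did not pass. Col6a1, a chain of its beaded filaments, had 8.14, 7.81, 8.57, 7.91 and 7.97 in ILK-deficient arrays, against 7.47, 7.47, 7.79, 7.68 and 7.44 in ILK-expressing arrays. The groups did not overlap, with ILK-deficient replicate 3 far above the rest. The log2 fold change was 0.51 (95% interval 0.21 to 0.81, adjusted p = 0.0737 from limma). Col6a2, its neighbour in the genome, had 0.16 (adjusted p = 0.556), Col6a3 had 0.10 (adjusted p = 0.85), and the 3 other collagen VI genes lay between -0.08 and 0.05. The remaining genes of this class were Col10a1, the network collagen of growth plate cartilage, at -0.06, Col26a1 at 0.05 and Col28a1 at -0.18. Of the 11 genes of beaded filaments, networks and other kinds, 1 was called, Col8a1.

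Among the 9 FACIT collagen genes none was called, and the median was 0.01. Col12a1, whose product coats collagen I fibrils, had 10.21, 10.13, 9.95, 10.06 and 10.09 in ILK-deficient arrays, against 10.21, 9.82, 10.04, 9.78 and 10.03 in ILK-expressing arrays. The groups overlapped, and the log2 fold change was 0.11 (95% interval -0.09 to 0.31, adjusted p = 0.675 from limma). Col14a1, which coats the same fibrils, varied most between arrays of 1 genotype, at 9.08, 9.26, 8.41, 9.66 and 9.72 in ILK-deficient arrays, against 8.98, 8.89, 8.51, 8.47 and 9.55 in ILK-expressing arrays. With this spread its log2 fold change of 0.34 had a 95% interval of -0.25 to 0.94, which still holds 0.80, the lower bound of Col8a1. Col20a1 had 0.17 (adjusted p = 0.407 from limma), Col19a1 0.02 and Col22a1 0.01, and the 3 chains of collagen IX, a cartilage collagen, had -0.03 (Col9a1), 0.01 (Col9a2) and -0.07 (Col9a3). Col16a1 was at -0.16 and, of the last class, Col28a1 at -0.18, the 2 collagen genes with an unadjusted p under 0.05 that were lower in ILK-deficient epidermis, with adjusted p = 0.313 and 0.302 from limma.

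None of the 4 transmembrane collagen genes was called. Col17a1, the hemidesmosome collagen, had 11.62, 11.62, 11.82, 11.49 and 11.77 in ILK-deficient arrays, against 11.61, 11.45, 11.87, 11.75 and 11.51 in ILK-expressing arrays. The groups lay over each other, and the log2 fold change was 0.03, with a 95% interval of -0.18 to 0.24 that bounds any change at 1.18-fold. Col13a1, a collagen of cell adhesions and of the neuromuscular junction, had 7.16, 6.88, 7.08, 7.14 and 7.00 in ILK-deficient arrays, against 6.97, 7.15, 6.88, 7.15 and 7.02 in ILK-expressing arrays, and its log2 fold change was 0.02 (95% interval -0.15 to 0.19). Col25a1 had 0.05 and Col23a1 0.00.

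Every ILK-deficient array was above every ILK-expressing array in 7 of the 44 genes (15.9%, against a background of 4.37%), and below every one in 0 (background 1.96%). The 7 were Col8a1, Col4a1, Col4a2, Col7a1, Col1a2, Col6a1 and Col5a2. They included 3 of the 9 basement membrane genes, 2 of the 11 fibrillar genes, 2 of the 11 genes of beaded filaments, networks and other kinds, and none of the FACIT or transmembrane genes. The genes of a group share arrays, and their count is a description of these arrays.

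Arrays of 1 genotype also differed among themselves. ILK-deficient replicate 5 was the lowest array of its genotype in 18 of the 44 genes, and ILK-deficient replicate 3 the highest in 17. ILK-expressing replicate 5 was the lowest of its genotype in 24, and ILK-expressing replicate 2 the highest in 26. Of the 22 collagen genes with a mean under 7, ILK-deficient replicate 5 was lowest of its genotype in 12, ILK-expressing replicate 5 in 13, and ILK-expressing replicate 2 was highest in 15. Over all 13482 probe sets tested with a mean under 7, these shares were 27.2%, 33.8% and 40.6%.

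**Figure D3:**
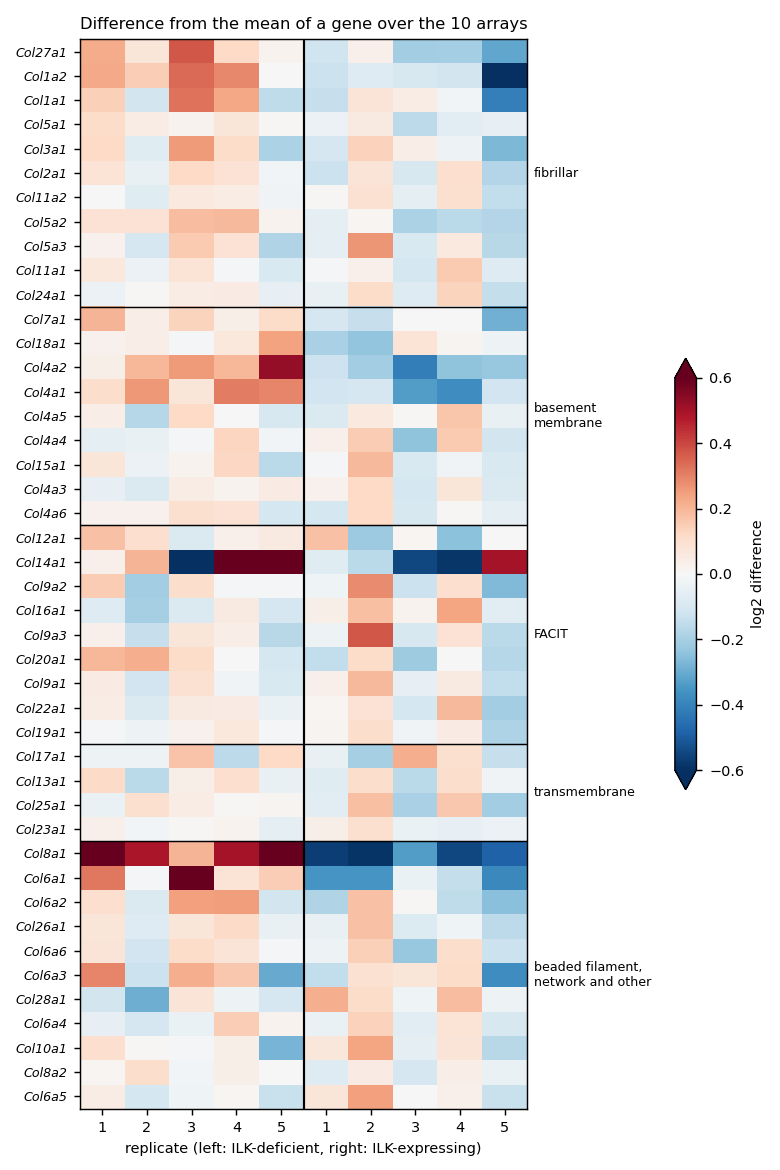
Difference of each log2 value from the mean of its gene over the 10 arrays, for 44 collagen genes in rows and 10 arrays in columns, ILK-deficient at the left and ILK-expressing at the right. Colours saturate beyond the ends of the scale. Col8a1, Col4a2 and Col4a1 split by genotype, and ILK-expressing replicate 2 is the highest array of its genotype in 26 genes.

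Beside these transcripts, some markers of other skin cells differed between the genotypes, while most of the listed markers were not called. In bulk tissue, fewer cells of a type and less RNA per cell cannot be told apart. Markers of fibroblasts, summed on the linear scale, lay between 11915 and 15202 in ILK-deficient and between 6611 and 12012 in ILK-expressing arrays. Of these 12 markers, 2 were called higher, Vim at 0.48 (adjusted p = 0.0185 from limma) and Thy1 at 0.39 (adjusted p = 0.0421), against a background of 2.81%. Vim was called in 19 of 20 alternative fits and Thy1 in 4. Dcn, the proteoglycan decorin and a fibroblast marker, ranged from 11.52 to 12.49 in ILK-deficient arrays and from 9.74 to 12.25 in ILK-expressing arrays, with an adjusted p = 0.467. The fibroblast receptors Pdgfra and Pdgfrb averaged 6.01 and 6.14 over the 10 arrays, little above the floor of 5.64, and their log2 fold changes were 0.08 and 0.01. Fbln1, also a fibroblast marker, had 0.45 (adjusted p = 0.138), and Mfap5 and Fap had 0.03 and -0.19. Of the list, 10 markers were not called, and its median was 0.21. The cells that made the Vim and Thy1 transcripts were not determined. The part of fibroblasts in the collagen results was not tested.

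The walls of blood vessels are a known site of collagens IV and VIII. The endothelial markers all averaged under 7 over the arrays (8 of 8). They summed to 456 to 516 in ILK-deficient and 455 to 505 in ILK-expressing arrays, and 0 of the 7 tested was called or had an unadjusted p under 0.05 in limma. Their 3 markers of highest mean, Emcn, Cldn5 and Cdh5, changed by 0.00, 0.01 and 0.05. Mural and smooth muscle markers summed to 3198 to 4701 in ILK-deficient and 2421 to 3374 in ILK-expressing arrays. Of the 7 tested, 2 were called higher (background 2.81%), Cspg4 at 1.27 (adjusted p = 0.0124 from limma) and Tagln at 0.29 (adjusted p = 0.0396). Cspg4 was called in all 20 alternative fits, and Tagln in 6 of the 18 that tested it. Tagln lay about the floor of 5.64, at 5.78 to 5.92 in ILK-deficient and 5.36 to 5.65 in ILK-expressing arrays. It passed the filter mainly through the ILK-deficient arrays, so its call carries little weight. Mcam and Notch3, which had the highest means of that list, had 0.69 (adjusted p = 0.0566) and -0.04. Rgs5, Myh11 and Cnn1, of the same list, averaged 6.02, 6.10 and 5.95, little above the floor of 5.64. Their log2 fold changes were -0.002, -0.05 and 0.08. The sum of the list rests mainly on Mcam, Notch3 and Cspg4, which averaged 10.73, 9.62 and 8.70. The cells that made the Mcam, Notch3 and Cspg4 transcripts were not determined. The part of vessel wall cells in the rise of Col8a1, Col4a1 and Col4a2 was not tested.

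Markers of Schwann cells and melanocytes summed to 4676 to 8876 in ILK-deficient and 905 to 2984 in ILK-expressing arrays, with Dct at 1.53 (adjusted p = 0.0313) and Sox10 at 0.69 (adjusted p = 0.00569) called higher, in 11 and 19 of 20 alternative fits. Tyrp1 had 2.23 (adjusted p = 0.0511). Dermal papilla markers summed to 915 to 1017 in ILK-deficient and 775 to 894 in ILK-expressing arrays, with Wif1 at 0.72 and Hhip at 0.46 called higher and Crabp1 and Alpl at 0.04 and -0.05. Wif1 was called in 9 of 20 alternative fits and Hhip in 13. Of keratinocyte markers, Krt1, Krt10 and Krt5 changed by -0.06, -0.04 and -0.08, Trp63 was called higher at 0.35 (in 13 of 20 alternative fits) and Krt14 lower at -0.23 (in 8 of 20), and the list summed to 74030 to 78640 in ILK-deficient and 73687 to 82899 in ILK-expressing arrays. No marker of skeletal muscle, adipocytes or leukocytes was called. Skeletal muscle markers summed to 616 to 804 in ILK-deficient and 627 to 671 in ILK-expressing arrays, with Tnnt3, Acta1 and Ckm at 0.11, 0.20 and 0.17. Adipocyte markers summed to 293 to 404 in ILK-deficient and 326 to 806 in ILK-expressing arrays, with Fabp4 at -0.68 (adjusted p = 0.44). Leukocyte markers summed to 1110 to 1563 in ILK-deficient and 1087 to 1613 in ILK-expressing arrays, with Csf1r, Cd3e and Cd68 at 0.15, 0.18 and -0.08. The part of these cells in the collagen results was not tested.

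Genes that fold, cut, link or bind collagen were described from lists, of which 44 genes were tested. Of 17 tested genes of collagen folding and modification, 0 were called in either direction, and the median was -0.02. P4hb, the beta subunit of prolyl hydroxylase, had -0.14 (adjusted p = 0.438 from limma), and Ppib, a cyclophilin that helps collagen chains to fold, had -0.08 (adjusted p = 0.646). Larger changes that did not pass were those of Sparc, a collagen-binding matrix protein, at -0.65 (adjusted p = 0.0771) and of P3h2, a prolyl 3-hydroxylase that acts on type IV collagen, at -0.57 (adjusted p = 0.0778).

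Of the 10 tested genes of propeptide processing and crosslinking, 2 were called higher and 1 lower. Bmp1 and Tll1 encode proteases that cut the C-terminal propeptide from fibrillar procollagens and also process procollagen VII. Bmp1 had 11.13, 10.99, 11.00, 10.98 and 11.17 in ILK-deficient arrays, against 10.80, 10.63, 10.91, 10.70 and 10.72 in ILK-expressing arrays, without overlap, and a log2 fold change of 0.30 (adjusted p = 0.0404 from limma). Tll1 had 7.86, 7.77, 7.36, 7.93 and 7.65 in ILK-deficient arrays, against 7.20, 6.97, 6.75, 6.47 and 7.30 in ILK-expressing arrays, and a log2 fold change of 0.78 (adjusted p = 0.0273). Adamts14, which cuts the N-terminal propeptide, was lower, with 8.20, 8.40, 8.27, 7.93 and 8.22 in ILK-deficient arrays, against 9.04, 8.55, 9.47, 8.88 and 8.78 in ILK-expressing arrays. Its log2 fold change was -0.74 (adjusted p = 0.0286), and Adamts3, a protease of the same kind, was at 0.00 (95% interval -0.11 to 0.11). Adamts3 has 16 probe sets, and this value is from the 1 of highest mean alone. Pcolce2, an enhancer of the C-terminal cut, had 0.26 (adjusted p = 0.294).

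Of the 9 collagen receptors tested, Ddr2, a receptor tyrosine kinase that binds fibrillar collagens, was called higher, at 8.50, 8.41, 8.67, 7.76 and 8.86 in ILK-deficient arrays, against 7.39, 7.40, 7.67, 7.89 and 7.83 in ILK-expressing arrays. ILK-deficient replicate 4 lay within the range of the ILK-expressing arrays, and the log2 fold change was 0.80 (adjusted p = 0.045 from limma). Ddr1, which binds type IV collagen as well and is expressed by epithelia, had 0.28 (adjusted p = 0.13), and Itgb1, the integrin beta 1 subunit, had 0.27 (adjusted p = 0.0991). Of the 8 fibril-binding proteoglycans tested, Bgn, which encodes biglycan, was called higher, at 10.99, 10.98, 10.86, 11.04 and 11.29 in ILK-deficient arrays, against 10.63, 10.55, 10.65, 10.32 and 10.75 in ILK-expressing arrays. Its log2 fold change was 0.45 (adjusted p = 0.031). Dcn had 0.77 (adjusted p = 0.467) and Aspn, the gene of asporin, had 0.76 (adjusted p = 0.072). Over the 4 lists 4 of 44 genes were called higher (background 2.81%) and 1 lower (background 0.97%). These calls lay close to the threshold, and all 5 were lost when ILK-deficient replicate 1 or 5 was left out, with the direction kept. Of 20 alternative fits, Bmp1 was called in 6, Tll1 in 11, Adamts14 in 10, Ddr2 in 6 and Bgn in 9, with log2 fold changes of 0.24 to 0.34 for Bmp1, 0.66 to 0.87 for Tll1, -0.84 to -0.61 for Adamts14, 0.70 to 0.97 for Ddr2 and 0.36 to 0.49 for Bgn.

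**Figure D4:**
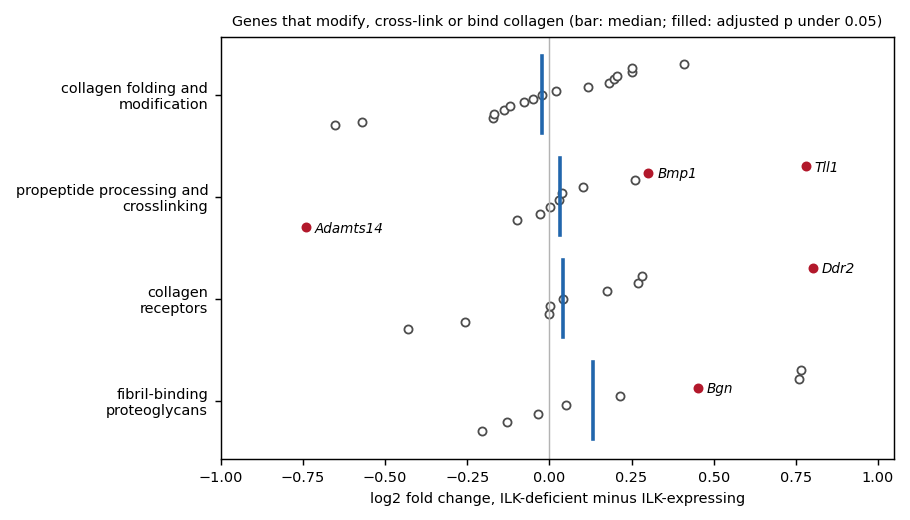
Log2 fold change (ILK-deficient minus ILK-expressing, horizontal axis) of the 44 tested genes of 4 lists in rows, with the median of each list as a bar. Filled points have an adjusted p under 0.05 in limma, which 4 genes reached on the right and Adamts14 on the left.

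The 10 arrays carry a letter code in their descriptions whose meaning the labels do not give. The letter D stands on 7 arrays (4 from ILK-deficient mice, 3 from ILK-expressing mice), the letter D with a prime on 1 array of each genotype, and C with a prime on ILK-expressing replicate 5 alone. With only the 7 arrays of the letter D, the log2 fold changes were 0.96 for Col8a1 (adjusted p = 0.0175 from limma), 0.42 for Col4a2 (adjusted p = 0.12) and 0.37 for Col4a1 (adjusted p = 0.169). In the 2 arrays of D with a prime, the difference was 1.23 for Col8a1, 0.77 for Col4a2 and 0.67 for Col4a1, with 1 array on each side. With the letter as a block, to which ILK-expressing replicate 5 adds nothing, the 3 genes stayed called, at 1.02 for Col8a1 (adjusted p = 0.00416), 0.50 for Col4a2 (adjusted p = 0.0302) and 0.44 for Col4a1 (adjusted p = 0.0433).

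**Figure D5:**
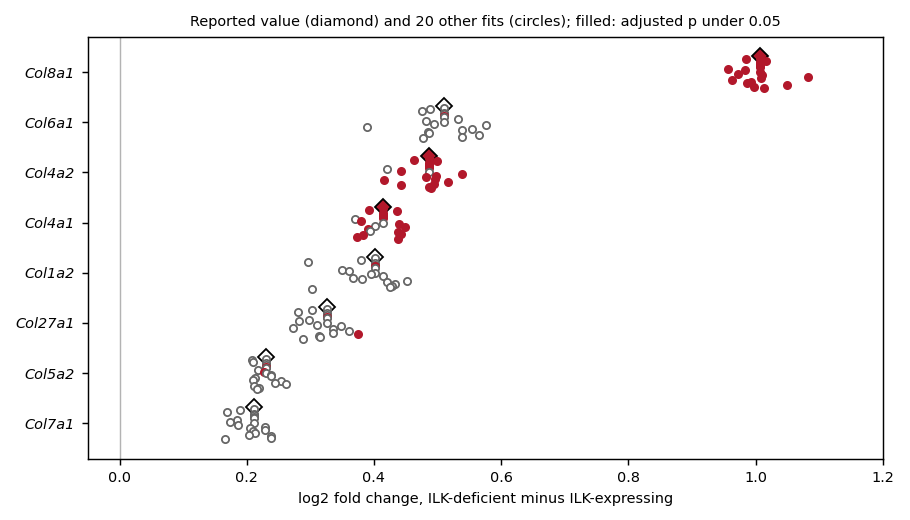
Log2 fold change (ILK-deficient minus ILK-expressing, horizontal axis) of the 8 collagen genes with an unadjusted p under 0.05 and a higher mean in ILK-deficient epidermis, in the reported fit (diamond) and in 20 other fits (circles). Filled symbols have an adjusted p under 0.05. Col8a1 was called in all 20, Col4a2 in 18 and Col4a1 in 16.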

How the data were processed

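The authors corrected the background of 10 scanned arrays, quantile-normalized them and summarised the probes of a probe set, and the deposited log2 values were used unchanged. The methods and labels name GC-RMA, RMA and Partek, and which made the table is not stated. Array medians lay between 7.07 and 7.17. With 5 arrays a genotype, their number limits the precision. Groups were taken from the titles, and the p values measure the spread between mice.

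Of 35556 probe sets, 21789 carried 1 gene symbol in the platform annotation. The 32046 that reached a linear value of 50 on 5 or more arrays were compared in R 4.3.3 with limma 3.58.1 (lmFit, eBayes, no covariate, Benjamini-Hochberg adjustment), checked on simulated arrays with 200 changed probe sets. Lists were described by counts and medians, and the genome build of the array annotation is not given in the sources used here, so that no gene coordinates are printed beside the values. Promoter letters are from RefSeq.

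The collagen genes and the lists were chosen with earlier results of these data known. Values on all arrays are given for each collagen gene past the test and the 2 of highest mean in each class. From the pathway lists, the largest changes past the test (4 or fewer a list) and the 2 uncalled genes of highest mean are named, and of each marker list its sum and up to 3 members of highest mean. Other genes were named after their values were seen. Alternatives differed in the low-value filter, scaling, variance model, test, block, probe sets per gene, arrays used or call rule. Some listed genes, among them Col21a1, Fkbp10, Adamts2, Loxl2, Gp6, Cfd and Dsc1, were not analysed here.

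The targeted gene, Ilk, averaged 8.94 on ILK-deficient and 9.17 on ILK-expressing arrays and changed by -0.23 (adjusted p = 0.253 from limma). Its probe set pools all exons, including those left in the transcript, and checks the labels little.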

Additional observations from a re-analysis of the deposited data

Results flagged for a closer look

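Of 44 collagen genes, 3 had an ILK-deficient array and 1 an ILK-expressing array far from the other 4 arrays of its genotype by Dixon's test, which flags about 1 in 20 groups by chance. Col1a2, a chain of collagen I, had its lowest value, 7.23, in ILK-expressing replicate 5, where the others of that genotype had 7.70 to 7.75. Col18a1, the basement membrane collagen that carries endostatin, was at 8.65 in ILK-deficient replicate 5 and between 8.40 and 8.47 in the others. Col10a1, the network collagen of growth plate cartilage, was at 5.81 in ILK-deficient replicate 5 and between 6.08 and 6.19 in the others. Col4a4, a type IV chain, was at 6.50 in ILK-deficient replicate 4 and between 6.32 and 6.36 in the others.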

How the results depend on the processing

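Col8a1 was called higher in all 20 alternative fits, with log2 fold changes of 0.96 to 1.08, and 0 collagen genes were called lower in any. The count of collagen genes called higher, 3 in the reported fit, was 7 when a gene's probe sets were averaged (18121 tests), 1 with the 7 arrays of the letter D, 1 with the replicate block, 1 under the 1.5-fold rule of the methods, and 2 to 4 when 1 array was left out. The 7 added Col1a2, Col5a2, Col6a1 and Col27a1, whose log2 fold changes were the same as in the reported fit. Averaging raised calls throughout, with 1220 of 18121 genes called higher, against 900 of 32046 probe sets in the reported fit. Col4a1 and Col4a2 lost the call with the replicate block (adjusted p = 0.0634 and 0.0696 from limma). The labels do not say whether a replicate number marks a shared litter or batch. Same-numbered arrays correlated at -0.30 to 0.11 after removal of the group means, which does not settle what the number means. Of 41 uncalled collagen genes, 18 changed sign somewhere, at values of 0.06 or less in size after rounding. The medians of FACIT and transmembrane collagens changed sign among them. Pathway genes called higher, 4 in the reported fit, were 0 by the ANOVA of the methods, 2 with equal array medians, 0 with the letter D alone, 0 with the replicate block, 6 with averaged probe sets, and 0 to 3 when 1 array was left out. Those called lower, 1 in the reported fit, were 0 by ANOVA, 0 with the letter D alone, 0 with the replicate block, 3 with averaged probe sets, 2 under the 1.5-fold rule and 0 to 1 when 1 array was left out. Over all probe sets, calls were 1211 in the reported fit, 686 by ANOVA, 608 with the replicate block, 297 with the letter D alone and 597 to 1010 when 1 array was left out. With averaged probe sets they were 1693 of 18121 tests. The cause of these differences was not tested.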
